A study of Mus musculus with 6 samples.

Results

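Glycolysis and its control by oxygen were examined through 33 genes, chosen by name. They comprised 5 genes for glucose uptake and phosphorylation, 7 for the upper and 6 for the lower part of glycolysis, 3 for lactate handling, 5 for oxygen sensing through the hypoxia-inducible factors (HIFs) and 7 transcriptional targets of HIF. All 33 were among the 18222 genes tested on the arrays. They were represented by 54 array probes, of which 53 were tested; the remaining probe belonged to Hk1. Each gene was described by its brightest probe (highest mean over the arrays), and the others were set beside it.

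The arrays held RNA from primary microglia of mice with acute ischemic stroke (AIS), captured with magnetic beads through P2RY12, a surface receptor of microglia. The mPGC-1α mice (3 arrays) carried PGC-1α f/f, a loxP-flanked allele with eGFP that overexpresses the mitochondrial coactivator PGC-1α after recombination, together with Cx3cr1-Cre/ER, which expresses a tamoxifen (TAM)-inducible Cre recombinase from the Cx3cr1 locus. The controls (3 arrays) were PGC-1α f/f littermates without Cre. Both groups were males on a C57BL/6 background, labelled as aged 10 weeks, and the mice received TAM before transient middle cerebral artery occlusion. Cx3cr1 is also active in other myeloid cells, and the interval between occlusion and harvest of the array samples was not given in the sources used here. No sham-operated group was analysed here, so the comparison concerned PGC-1α after stroke and not the response to stroke itself. Whether each array came from a separate animal was not stated, so p-values measured the spread between these samples.

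Microglia take up glucose through facilitative transporters, trap it with hexokinases and split it to pyruvate, which is either burned in mitochondria or reduced to lactate and exported. When oxygen is short, the prolyl hydroxylases of the EGLN family slow down, HIF-α proteins escape degradation by the VHL ubiquitin ligase, and HIF raises the transcription of most glycolytic enzymes and of targets that remodel matrix, pH and blood flow. Activated microglia are known for a shift towards glycolysis. PGC-1α acts on the other side of the same choice, as it promotes mitochondrial biogenesis and respiration.

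Several facts of the samples touch the values below. Between 71.0% and 86.5% of spots lay well above background per array, and no spot was saturated. Before scaling, the 75th percentile of intensity was 1179, 709.9 and 975.7 in the controls and 758.9, 701.5 and 893.4 in the mPGC-1α samples. Controls 1 and 3 were thus the brightest arrays, and the part of array brightness in the differences below was not tested. Ppargc1a itself, which encodes PGC-1α, did not separate the groups. Its levels, in log2 units relative to the 75th percentile of the array (the scale used throughout), were -1.05, -0.55 and -0.53 in the controls and -1.08, -0.86 and -1.12 in the mPGC-1α samples, a difference of -0.31 ± 0.24 (SE, limma adjusted p = 0.798). A second Ppargc1a probe read -2.15, -1.71 and -1.75 against -2.49, -1.96 and -2.41 (-0.41 ± 0.27, limma adjusted p = 0.769). Neither probe was higher in the mPGC-1α samples, and the position of the probes relative to the transgene is not known here. Cx3cr1, the locus that carries Cre, was at 4.19, 3.66 and 4.11 in the controls against 2.79, 2.36 and 3.14 on its only tested probe. A brighter Cx3cr1 probe, not tested because 3 of its spots were marked, read 3.96, 4.41 and 3.76 against 3.58, 3.67 and 3.90 with marked spots kept, and there the groups overlapped. All 12 microglial markers listed, P2ry12 and Tmem119 included, were well above background on all 6 arrays, but so were all 8 oligodendrocyte, 8 astrocyte, 8 monocyte and macrophage, 8 neutrophil and 7 lymphocyte markers. With marked spots and untested probes kept, the mean level of the microglial list ran from 4.03 to 4.24 in the controls and from 3.99 to 4.14 in the mPGC-1α samples. That of the neutrophil list ran from 3.54 to 4.20 and from 2.65 to 4.31. On tested probes, which left out P2ry12 and Tmem119, 4 microglial markers were higher and 6 lower (median -0.09). The 6 with a value on every array had means of 3.84, 3.48 and 3.99 in the controls against 3.43, 3.30 and 3.53. Xist, the transcript of the inactive X chromosome in females, was at -4.83 on control array 2 but between -0.57 and -0.11 on the other 5 arrays, and the probe of the Y-linked gene Ddx3y was well above background on control array 2 alone. These 5 arrays went against their male label. Calls that changed when control array 2 was left out are given both ways.

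HIF acts by binding short sequences near the genes it controls, and the letters of their core were located in the promoters first. The core of the hypoxia response element was searched as ACGTG and GCGTG on both strands (CACGT and CACGC on the printed strand) in RefSeq promoter windows of GRCm38.p6, from 250 bases before to 50 after each start. A CACGTG box counts as a match on each strand. Windows existed for 30 of the 33 genes (41 windows), all but Slc2a3, Epas1 and Ndrg1. A match lay in 33 windows (80.5%) against 43.8% of all 32851 windows, and ACGTG in 58.5% against 19.6%. Some windows of the same gene overlap and share matches. Counted by gene, 26 of the 30 held a match, against 12628 of all 27025 genes with a window. The members' windows were also richer in G and C (median 62.7% against 52.7%), and both cores contain CG, so the part of base composition was not tested. A match describes letters and not binding. The upstream stretches of 6 genes to which the values return are shown 5′ to 3′ on the strand of the gene, with matches in capitals. Pfkfb3, Adm and P4ha2 are shown because they held the smallest p-values or separated groups, Egln3 for the widest difference, and Ldha and Pgk1 as enzymes whose groups overlapped on the brightest probe.
Pfkfb3 (chr2:11553960-11554014, minus strand, -85 to -31): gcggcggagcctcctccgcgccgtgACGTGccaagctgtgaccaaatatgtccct
Adm (chr7:110627542-110627632, plus strand, -115 to -25): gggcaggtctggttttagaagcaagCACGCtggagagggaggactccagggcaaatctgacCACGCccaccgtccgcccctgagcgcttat
P4ha2 (chr11:54100792-54100884, plus strand, -132 to -40): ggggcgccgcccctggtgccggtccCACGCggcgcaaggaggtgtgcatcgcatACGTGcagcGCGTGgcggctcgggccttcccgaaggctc
Egln3 (chr12:54204074-54204124, minus strand, -250 to -200): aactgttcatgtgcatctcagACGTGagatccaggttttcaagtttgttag
Ldha (chr7:46845634-46845799, plus strand, -170 to -5): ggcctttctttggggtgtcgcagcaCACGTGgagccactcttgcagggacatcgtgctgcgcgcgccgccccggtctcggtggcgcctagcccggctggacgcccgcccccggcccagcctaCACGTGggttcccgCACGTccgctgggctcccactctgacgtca
Pgk1 (chrX:106186925-106186998, plus strand, -175 to -102): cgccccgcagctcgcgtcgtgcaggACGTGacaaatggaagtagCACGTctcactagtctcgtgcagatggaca
Adm carried only the GCGTG core within its window, Egln3 a single ACGTG far from the start, and Ldha 2 CACGTG boxes and a further CACGT. Gpi1, Tpi1, Eno2 and Vhl held neither core in any window.

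Across the 33 genes the groups lay close together. On the brightest probe 16 genes were higher and 17 lower in mPGC-1α microglia, with a median log2 difference (mPGC-1α minus control) of -0.01 and a range from -1.17 for Egln3 to 0.73 for Pfkfb3. Over all genes tested the median difference was 0.11, with 11671 genes higher and 6551 lower. No member passed an adjusted p of 0.05 in limma, and neither did any gene at all (0% of 18222). At an unadjusted p below 0.05, 2 members were higher, Pfkfb3 and Adm, against 3.41% of all genes, and none was lower, against 2.68%. With the replicate number as a block these counts were 3 higher (Eno2 in addition), against 5.25% of all genes, and 2 lower (Pfkp and Egln3), against 5.01%, again with no member past the adjusted threshold in limma. The 95% interval stayed inside a 2-fold change either way for 25 of the 33 genes. Of the 29 members with a value on all 6 arrays, 1 had all mPGC-1α arrays above all controls (8.48% of all such genes) and 1 had them all below (3.45%). In bulk RNA, fewer cells of a type and less RNA per cell cannot be told apart.

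**Figure D1:**
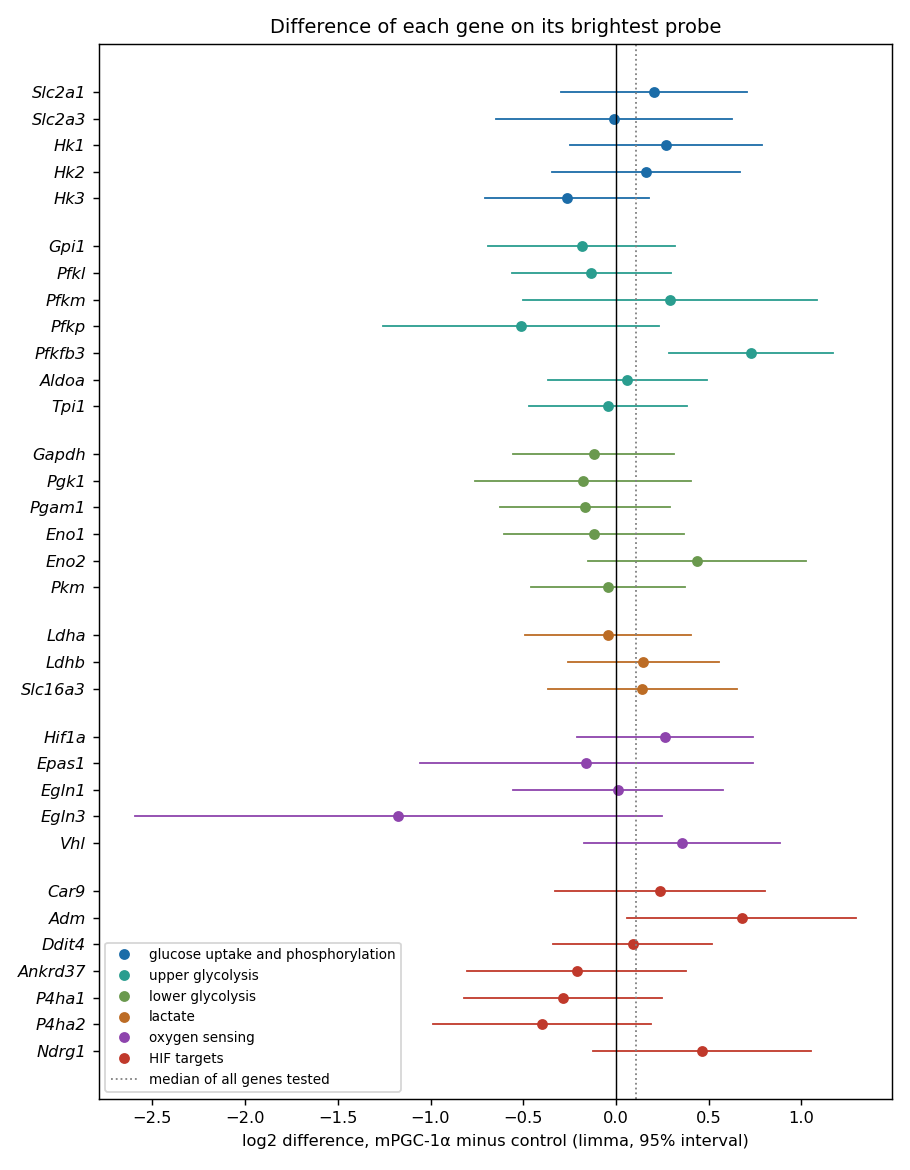
Log2 difference (mPGC-1α minus control, x axis) of each of the 33 genes on its brightest probe, with the 95% limma interval as a line and colours for the role of the gene; the dotted line is the median of all genes tested, 0.11. The interval lies wholly above 0 for Pfkfb3 and Adm, includes 0 for all the others, and is widest for Egln3.

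Glucose entry and trapping came first. Slc2a1 (GLUT1) and Slc2a3 (GLUT3) import glucose, and the hexokinases Hk1, Hk2 and Hk3 phosphorylate it. Hk1, which docks on mitochondria, had the largest positive difference of the group, with levels of 1.99, 2.69 and 2.28 in the controls and 2.39, 2.82 and 2.55 in the mPGC-1α samples, or 0.27 ± 0.23 (SE, limma adjusted p = 0.810). The groups overlapped, and the difference ran from 0.10 without control array 1 to 0.45 without control array 2. Hk3, the isoform of myeloid cells, had the largest negative difference, at 2.62, 2.67 and 2.33 against 2.46, 2.08 and 2.29, or -0.27 ± 0.20 (limma adjusted p = 0.786). Here too the highest mPGC-1α array lay within the controls. The dimmer Hk3 probe gave 2.05, 1.47 and 1.71 against 1.40, 1.12 and 1.45, so that on it all mPGC-1α arrays were below all controls (-0.42, limma adjusted p = 0.722). Slc2a1 and Hk2, both classical HIF targets, differed by 0.20 and 0.16 with the third mPGC-1α array left out because its spot was marked as an outlier. The marked spots read 3.03 for Slc2a1 and 2.46 for Hk2, both above every control, and with them the differences were 0.27 and 0.38, so that Hk2 then had the largest of the group. Slc2a3 differed by -0.01.

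In upper glycolysis the largest difference of all 33 genes in the positive direction was that of Pfkfb3, which makes fructose-2,6-bisphosphate, the strongest activator of phosphofructokinase. Its brightest probe read 3.00, 2.62 and 2.71 in the controls and 3.74, 3.41 and 3.36 in the mPGC-1α samples. Every mPGC-1α array stood above every control. The difference was 0.73 ± 0.20 (SE, 95% interval 0.29 to 1.17), or 1.66-fold, with an unadjusted limma p of 0.0045 and an adjusted p of 0.684. It was 0.77 on the first slide (2 arrays of each group) and 0.65 on the second (1 of each), and 0.65 without control array 2. The exact permutation test over the 20 assignments of arrays gave p = 0.10, the smallest that 3 against 3 arrays allow.

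A second Pfkfb3 probe went the other way. It read 0.26, -2.94 and -0.52 in the controls against -1.64, -1.93 and -2.33, a difference of -0.90 ± 0.68 (limma adjusted p = 0.791). Control array 2 was the lowest of all 6 there and the other 2 controls the highest. The mean of both probes gave -0.09, so the direction for Pfkfb3 depended on the probe. Both probes name the same gene by a curated RefSeq transcript, and which transcript forms each one reads was not determined here. The RefSeq table held promoter windows at 2 starts for Pfkfb3. The one printed above has 1 ACGTG match, and the window at the other start has 4 matches, 2 of them a CACGTG box read on both strands.

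Pfkp, the platelet-type subunit of phosphofructokinase, had the largest negative difference in upper glycolysis. It read 2.08, 2.79 and 2.82 in the controls against 1.36, 2.58 and 2.22, or -0.51 ± 0.33 (limma adjusted p = 0.767). The first mPGC-1α array was far below the rest, and without it the difference was -0.17. The differences within same-numbered pairs were -0.72, -0.21 and -0.60. A second Pfkp probe gave -0.67 ± 0.30 (adjusted p = 0.698). The liver-type subunit Pfkl and the muscle-type subunit Pfkm differed by -0.13 and 0.29, so the 3 subunits of the same enzyme did not share a direction. Gpi1, which interconverts glucose and fructose phosphates, had 4.28, 4.18 and 4.65 against 3.79, 4.40 and 4.39 on its brightest probe (-0.18) and 0.04 and 0.05 as differences on the other 2 probes. Aldoa (aldolase) and Tpi1 (triose phosphate isomerase) differed by 0.06 and -0.04.

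**Figure D2:**
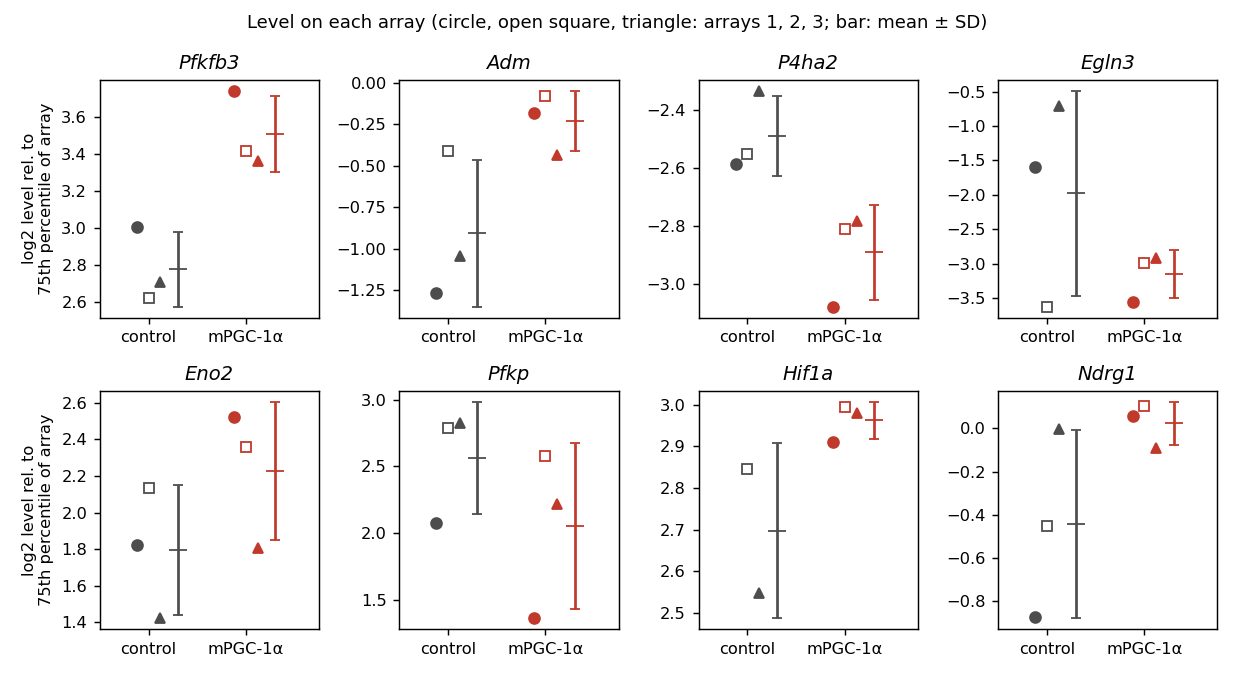
Level of 8 genes on each array (y axis, log2 relative to the 75th percentile of the array; axes do not start at 0 and differ between panels), with controls in grey and mPGC-1α in red, and mean ± SD beside the points. Pfkfb3 and P4ha2 separate the groups over 3 against 3 arrays, while the second control array (open square) lies at the mPGC-1α level for Egln3 and at their edge for Adm; control array 1 of Hif1a has no point because its spot was marked.

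Lower glycolysis turns triose phosphates into pyruvate and yields the ATP. Of its 6 genes 5 were lower and 1 higher, all within 0.5 log2 units. Gapdh (glyceraldehyde-3-phosphate dehydrogenase) read 4.99, 5.41 and 5.33 against 4.86, 5.29 and 5.22, a difference of -0.12 ± 0.19. The 5 further Gapdh probes ranged from -0.19 to 0.08, and 4 of them were positive. Pgk1 (phosphoglycerate kinase) was the lowest of the 6 in difference, at 3.28, 3.83 and 3.91 against 3.06, 3.88 and 3.54, or -0.18 ± 0.26 (limma adjusted p = 0.897). The 2 groups covered nearly the same range. Pgam1 (phosphoglycerate mutase), Eno1 (α-enolase) and Pkm (pyruvate kinase) differed by -0.17, -0.12 and -0.04 on their brightest probes.

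The exception was Eno2, the enolase known as neuron-specific, at 1.82, 2.13 and 1.42 in the controls and 2.52, 2.36 and 1.80 in the mPGC-1α samples (0.44 ± 0.26, limma adjusted p = 0.752). The third mPGC-1α array lay inside the controls, and the difference ran from 0.25 without control array 3 to 0.65 without that mPGC-1α array. Neuronal markers moved with it. Of 13 neuronal markers 12 were higher, with a median difference of 0.89, and their mean level per array ran from -1.45 to -0.99 in the controls and from -0.97 to -0.05 in the mPGC-1α samples. On all 6 arrays, 12 of the 13 were well above background. The part of neuronal markers in the Eno2 value was not tested. All 8 oligodendrocyte markers were higher as well (median 0.74), against a median of 0.11 over all genes tested. Whether either list bears on other members was not tested.

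Lactate is made from pyruvate by lactate dehydrogenase. Ldha, the subunit that favours lactate and carried the most core matches of the stretches printed above, read 3.31, 3.45 and 3.69 against 3.16, 3.60 and 3.56, a difference of -0.04 ± 0.20 with a 95% interval of -0.49 to 0.40. The groups lay over each other. Ldhb, the subunit that favours pyruvate, read 4.21, 4.53 and 4.67 against 4.51, 4.66 and 4.68 (0.15 ± 0.18), and its second probe differed by -0.03. Slc16a3 (MCT4), which exports lactate from glycolytic cells, differed by 0.14 ± 0.23. Over the 14 enzymes from Gpi1 to Ldhb, without the regulator Pfkfb3, 10 differences were negative and 4 positive, with a median of -0.08, and 11 had an interval inside a 2-fold change. Quantile normalization gave 12 negative and 2 positive with a median of -0.22, and the percentile over unmarked probes 7 and 7. Without the first mPGC-1α array 4 were negative and 10 positive (median 0.04), and without control array 3, 8 and 6 (median -0.02). With any other single array left out, between 9 and 11 were negative. The balance of directions among the enzymes thus varied with the arrays and the scaling used. Among enzymes near 0, Aldoa and Ldhb became negative under quantile normalization and Tpi1, Pkm and Ldha positive when the 75th percentile was taken over unmarked probes.

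The oxygen-sensing genes ran from the HIF subunits to the enzymes that destroy them. Hif1a, which encodes the oxygen-regulated subunit HIF-1α, was left with 2 control values, 2.85 and 2.55, against 2.91, 3.00 and 2.98, a difference of 0.27 ± 0.21 (limma adjusted p = 0.797). The control array left out had 2.81 at its marked spot, which is also below the mPGC-1α arrays. Vhl, the recognition subunit of the ligase, had the largest positive difference of the group, at 0.09, 0.13 and 0.72 against 0.64, 0.59 and 0.77 (0.35 ± 0.23, adjusted p = 0.769). The third control lay within the mPGC-1α range, and without it the difference was 0.56. Epas1 (HIF-2α) and Egln1 (PHD2), the main prolyl hydroxylase, differed by -0.16 and 0.01.

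Egln3 (PHD3), a prolyl hydroxylase that is itself induced by HIF, had the widest difference of the 33 genes. Its only probe read -1.60, -3.63 and -0.71 in the controls against -3.55, -2.99 and -2.92 in the mPGC-1α samples, or -1.17 ± 0.63 (limma unadjusted p = 0.095, adjusted p = 0.729). Controls 1 and 3 were above every mPGC-1α array, and control 2 was below all of them. Dimmer probes of Pkm, P4ha1 and Pfkfb3 also had controls 1 and 3 above every other array, unlike the brightest probes of Pkm and Pfkfb3. Egln3 had no second probe with which its value could be compared. Without control array 2 the difference was -2.00 with a limma adjusted p of 0.0139. Without control array 3 it was -0.54. Within slides it was -0.66 on the first, which holds control array 2, and -2.21 on the second. The exact permutation p over all 6 arrays was 0.40.

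Among the HIF targets the directions were mixed, 4 positive and 3 negative, with a median of 0.09. Adm (adrenomedullin), a secreted vasodilator peptide, read -1.27, -0.41 and -1.05 in the controls against -0.18, -0.08 and -0.43 in the mPGC-1α samples. Control array 2 lay just above the third mPGC-1α array and the other 2 controls were below all mPGC-1α arrays. The difference was 0.68 ± 0.27 (SE, 95% interval 0.06 to 1.30), or 1.60-fold, with a limma unadjusted p of 0.034 and an adjusted p of 0.686. Without control array 2 it was 0.93 with an adjusted p of 0.0453, and without control array 1 it was 0.50. It was 0.71 on the first slide and 0.61 on the second.

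P4ha2, a collagen prolyl 4-hydroxylase subunit, separated the groups in the opposite direction. Its levels were -2.59, -2.55 and -2.33 in the controls and -3.08, -2.81 and -2.78 in the mPGC-1α samples, all well above background. The highest mPGC-1α array stood below the lowest control. The difference was -0.40 ± 0.26 (limma unadjusted p = 0.160, adjusted p = 0.767; exact permutation p = 0.10), at -0.37 on the first slide and -0.45 on the second. The sister subunit P4ha1 differed by -0.29 on its brightest probe, and by -0.52 without control array 2, with groups that overlapped over the 6 arrays.

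The other targets did not share a direction. Ndrg1, a stress-response gene, read -0.87, -0.45 and -0.0012 against 0.06, 0.10 and -0.09 (0.47 ± 0.26, limma adjusted p = 0.741), with the third control inside the mPGC-1α range. Without control array 1 the Ndrg1 difference was 0.25 and without control array 3 it was 0.69. Car9 (carbonic anhydrase IX), which controls pH at the cell surface, read 1.65, 2.58 and 2.21 against 2.43, 2.51 and 2.23 (0.24 ± 0.25), and its dimmer probe gave -0.55 ± 0.42. Ddit4 (REDD1), an inhibitor of mTORC1, differed by 0.09 over 5 arrays, and Ankrd37 by -0.21. On the brightest probe Adm, Ndrg1, Car9 and Ddit4 were on the higher side and P4ha1, P4ha2 and Ankrd37 on the lower.

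Where a gene had further probes, a second pattern appeared. The 14 members with several tested probes had 20 probes beside the brightest. Of these, 7 (35.0%) differed by at least 0.5 log2 units less than the brightest probe of the same gene, and none by at least 0.5 more. Over all genes the shares were 31.5% and 6.56%, so the count among members was near the background. At an unadjusted limma p below 0.05, 4 of the 20 were lower, against 12.2% of all such probes, and none was higher.

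Among the 7, Pkm was the plainest. Its brightest probe read 4.59, 5.01 and 4.84 against 4.59, 4.96 and 4.77, while a dimmer one read 4.11, 1.50 and 3.87 in the controls against 1.32, 1.77 and 1.94 in the mPGC-1α samples (-1.48 ± 0.58, limma adjusted p = 0.686). Controls 1 and 3 were above all other arrays by about the same distance, and control 2 lay among the mPGC-1α arrays. On its dimmer probe P4ha1 also had controls 1 and 3 above all other arrays, with 1.41, -1.01 and 1.67 against -0.52, -1.24 and -1.22 (-1.68 ± 0.61, adjusted p = 0.684).

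The remaining probes of this kind belonged to Slc2a3, Ldha, Eno1, Car9 and Pfkfb3. The Slc2a3 probe read -1.96, -3.48 and -2.41 against -4.01, -3.61 and -3.65, so that its groups did not overlap (-1.14 ± 0.40, limma adjusted p = 0.684). The Ldha probe, with control 3 marked, read 0.99 and -1.24 in the controls against -1.34, -1.44 and -1.28. The Eno1 probe read 3.91, 2.75 and 3.86 against 2.44 and 2.79, with the third mPGC-1α array marked (-0.89 ± 0.36, adjusted p = 0.687). The Car9 probe read -2.13, -3.45 and -1.86 against -3.09, -3.26 and -2.73, with control 2 below every other array (-0.55, and -1.03 without control array 2). In all 7 genes control array 2 was the lowest measured control on the dimmer probe, by between 1.16 and 3.20 log2 units below control array 1, whereas on the brightest probe it lay above control array 1 in 4 of the 7 genes. The 7 probes were picked by a difference that itself depends on the control values. How often the same holds over all genes was not counted, so it is not a trait of these genes. Neither the array files nor the gene table used here tell which part of a transcript these probes read.

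**Figure D3:**
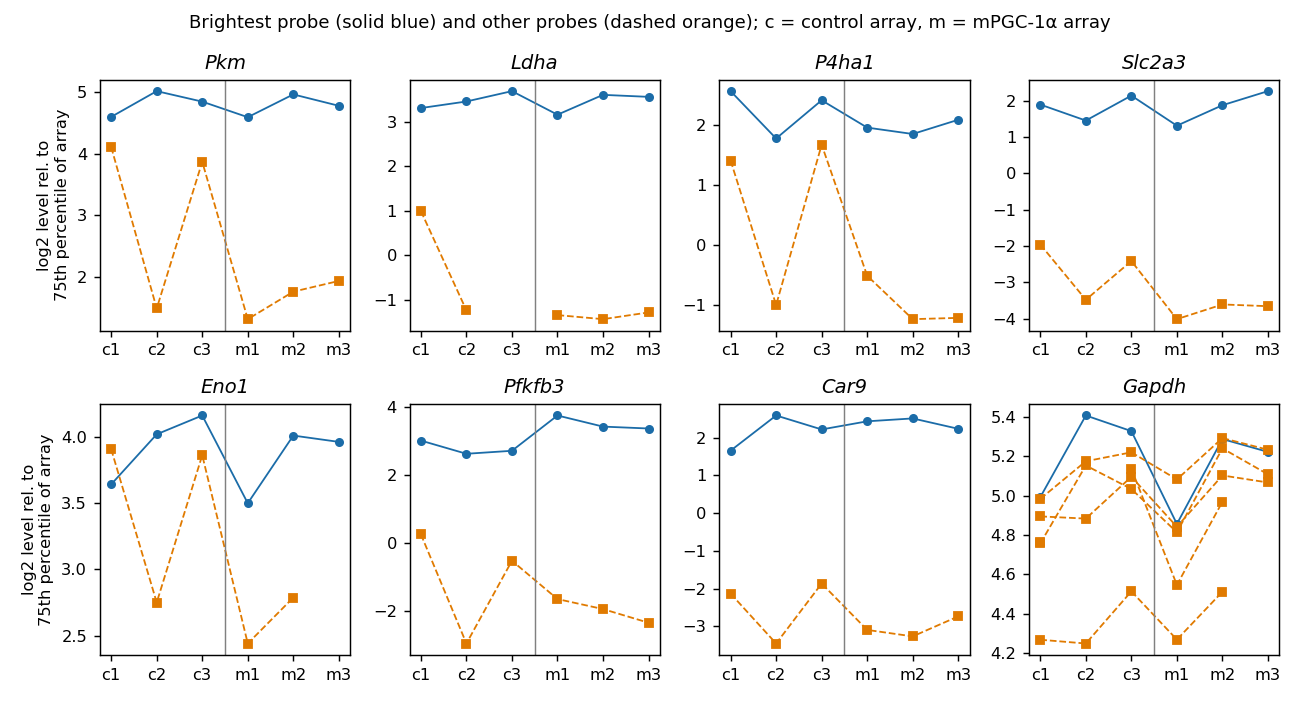
Level on each array (y axis, log2 relative to the 75th percentile of the array; x axis, c1 to c3 controls and m1 to m3 mPGC-1α arrays) for the brightest probe (solid blue) and the other probes (dashed orange) of 8 genes; a missing point is a marked spot. In Pkm, P4ha1, Eno1 and Pfkfb3 the dashed line is high on c1 and c3 and low on c2 and on the mPGC-1α arrays, while the solid line does not show this drop in Pkm, Eno1 or Pfkfb3; the 6 Gapdh probes stay within 1.16 log2 units of each other.

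Several calls turned on control array 2. With it left out, 2102 of 39288 probes passed an adjusted p of 0.05 in limma, 140 higher and 1962 lower. Of the 32 members then tested on the brightest probe 1 was called higher, Adm, against 0.452% of all genes, and 1 lower, Egln3, against 2.62%. Of their 18 other probes 5 were called lower, against 14.1% of all such probes. These were the dimmer probes of Pkm (-2.31, adjusted p = 0.0012), P4ha1 (-2.53, adjusted p = 0.0019), Pfkfb3 (-1.84, adjusted p = 0.0135), Eno1 (-1.27, adjusted p = 0.0147) and Slc2a3 (-1.57, adjusted p = 0.0164). The brightest probes of the same 5 genes were not called, and the brightest Pfkfb3 probe kept its positive difference (0.65, adjusted p = 0.108). Leaving out any other single array gave no call among the 33 genes.

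**Figure D4:**
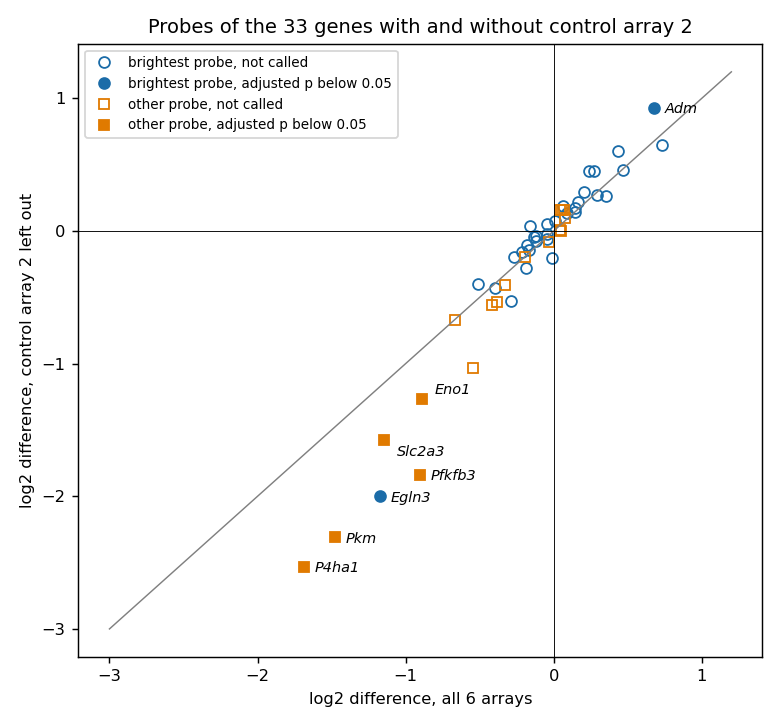
Log2 difference (mPGC-1α minus control) of each tested probe of the 33 genes with all 6 arrays (x axis) and with control array 2 left out (y axis); the grey line marks equal values and filled symbols an adjusted limma p below 0.05 without that array. Most brightest probes (blue circles) lie near the line. Egln3 and dimmer probes (orange squares) of Pkm, P4ha1, Pfkfb3, Eno1, Slc2a3 and Car9 lie furthest below it, that of Car9 without a call. Adm, called higher, lies above it.

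Other genes of both pathways were read from the same arrays. Of 28 further genes of glycolysis and pyruvate handling 25 were tested, 14 on the higher and 11 on the lower side (median 0.01), none past the adjusted threshold and 2 higher and 1 lower at an unadjusted p below 0.05 (3.41% and 2.68% of all genes). Aldoc, the brain aldolase, read 2.27, 2.66 and 2.87 against 2.99, 4.74 and 3.24 (1.06 ± 0.41, limma adjusted p = 0.685). It is also an astrocyte marker, and the other 6 astrocyte markers tested were all higher (median 0.47), with a mean level per array from -1.01 to -0.42 in the controls and from -0.39 to 0.45 in the mPGC-1α samples. Their part in the Aldoc value was not tested. Eno3, the muscle enolase, differed by 0.52 ± 0.20 without overlap.

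Adpgk, an ADP-dependent glucokinase, had the profile of the dimmer probes, at 0.93, -2.07 and 0.86 in the controls against -2.75, -2.64 and -2.42 (-2.51 ± 0.69, limma adjusted p = 0.684). Control array 2 stood above the mPGC-1α arrays but far below the other controls, and without it the difference was -3.50 (adjusted p = 0.000501).

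Of 36 further HIF pathway genes 35 were tested, 24 higher and 11 lower, with a median of 0.13, none past the adjusted threshold and 3 higher and 1 lower at an unadjusted p below 0.05, against the same shares of all genes. Hif3a, a HIF-α paralogue that can restrain the others, read 1.13, 1.00 and 1.32 against 2.14, 1.66 and 2.26 (0.87 ± 0.22, limma adjusted p = 0.684). Its groups did not overlap. Egln2 (PHD1), another prolyl hydroxylase, differed by 0.46 ± 0.18 without overlap. Car12, a carbonic anhydrase related to Car9, read 1.71, 1.59 and 2.43 against -0.06, 1.27 and 0.81 (-1.24 ± 0.36, adjusted p = 0.684), with all mPGC-1α arrays below all controls. Bhlhe40, also on this list, differed by -0.69 with all arrays kept (limma adjusted p = 0.698), and its groups overlapped. Without control array 2 the Bhlhe40 difference was -1 and the gene was called lower (limma adjusted p = 0.047).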

How the data were processed

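Total RNA of P2RY12-selected microglia was hybridised by the authors to Agilent mouse arrays, 1 per sample (3 control, 3 mPGC-1α, grouped by title). The deposited files hold linear spot intensity from Agilent Feature Extraction 11.5.1.1 (processed signal, background-subtracted, not normalized between arrays). The labels name Cy3 in one field and Cy5 in another; the 1 channel present was used. GeneSpring-normalized log2 values deposited by the authors as a series matrix served as an alternative.

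In R 4.3.3, each array was scaled to the 75th percentile of its non-control probes on the log2 scale; outlier-marked spots were left out of values. Testing required signal well above background on every unmarked array of a group (at least 2 arrays) and 2 values per group (40745 probes, 3750 with a missing value). Accessions were matched to RefSeq (GRCm38.p6) for 33767 of 56605 probes. The number of arrays limits the precision. Groups were compared with limma 3.58.1 (lmFit, eBayes with trend, two-sided, Benjamini-Hochberg over all probes) and exact permutation tests, two-sided; the procedure was also tested on simulated data. Members and lists were chosen with earlier results of these data known. All 33 members are named. Array values are given for those without overlap, with an unadjusted p below 0.05, with the largest difference of a role group in each direction, or with probes of opposite sign, and further genes at an unadjusted p below 0.05, of which 1 is not reported here. Same-numbered arrays deviated from their group means together (correlations across probes 0.247, 0.224 and 0.171, against -0.337 to 0.035 for different numbers). Deviations from a group mean cancel within the group, so the lower values for different numbers are partly forced by the same-numbered ones. Because of the same-numbered correlations, the replicate number was also tried as a pairing, as an alternative. Standard errors, intervals and p-values printed for single genes are from the fit without it. No label says what the number stands for, and the arrays numbered 3 also share a slide. Alternatives were quantile normalization, normexp, the series matrix, filters, marked spots kept, slide and replicate blocks, no trend, averaging the probes of a gene and each array left out. One was added after seeing the data, the percentile over unmarked probes only. Arrays 1 and 2 of each group lay on one slide and array 3 on another.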

Additional observations from a re-analysis of the deposited data

How the results depend on the processing

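The arrays number 3 a group, and dim probes carry the widest errors. Of 549 recomputed differences of the 33 genes, 510 kept their sign and their side of the adjusted threshold, 37 changed sign and 2 passed the threshold; 17 genes had no change of sign. The cause of the changes was not tested. No member was called under any alternative other than without control array 2. The count of called members ran from 0 to 2 and that of called probes from 0 to 2102 when single arrays were left out, the upper ends without control array 2. The replicate block, in which same-numbered arrays were paired, called 1 probe (Mmp12, limma adjusted p = 0.0058) and no member, against 0 without it. The median difference of the members ran from -0.13 to 0.11 over the arrays left out. It was -0.12 under quantile normalization, -0.13 under normexp with it, -0.10 in the series matrix and 0.03 with the percentile over unmarked probes.

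Differences turned negative under quantile normalization for Aldoa (-0.12), Ldhb (-0.0023), Egln1 (-0.029) and Ddit4 (-0.093), under normexp with quantile normalization for Aldoa (-0.14), Ldhb (-0.015) and Ddit4 (-0.089), and in the authors' series matrix for Aldoa (-0.10), Ldhb (-0.0033) and Egln1 (-0.030). With the probes of a gene averaged, Pfkfb3 was at -0.087, Car9 at -0.15 and Gapdh at 0.052. Averaging also gave the lowest values over all settings for Ldha (-1.27), P4ha1 (-0.99), Pkm (-0.76) and Slc2a3 (-0.58), without a change of sign. For Ldha, control array 3 then rested on the brighter probe alone, as its other spot was marked. With the 75th percentile over unmarked probes only, chosen after seeing the data, Slc2a3 was at 0.064, Tpi1 at 0.033, Pkm at 0.034 and Ldha at 0.033. Leaving out single arrays moved Slc2a3 from -0.24 to 0.24, Aldoa from -0.10 to 0.19, Egln1 from -0.19 to 0.14, Car9 from -0.010 to 0.46, Pkm from -0.15 to 0.056, Epas1 from -0.58 to 0.26, Tpi1 from -0.14 to 0.087, Ldha from -0.13 to 0.098, Gpi1 from -0.29 to 0.018, Gapdh from -0.25 to 0.012, Pgk1 from -0.37 to 0.039, Eno1 from -0.27 to 0.045 and Pfkm from -0.085 to 0.65. Slc2a1, Hk2, Hif1a and Ddit4 could not be tested in some of these settings, as a group was left with 1 value.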
